A study of Homo sapiens with 6 samples.

Results

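DEK, a chromatin-bound DNA-binding protein, and 9 genes of the high mobility group (HMG) families were examined in SK-BR-3 cells given an siRNA against GRB2. The group comprised DEK, HMGA1, HMGA2, HMGB1, HMGB2, HMGB3, HMGN1, HMGN2, HMGN3 and HMGN4, taken by symbol from the tables of read counts and FPKM. The group was selected on the lower read count of DEK in the treated libraries, so that difference is given as a description, with no test. The HMG genes entered by family name. Of these 10 symbols, 9 were matched to a row among the 30327 genes counted, and all 9 were among the 15801 genes with enough reads to test. HMGA2 was not analysed here.

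SK-BR-3 is an established breast cancer cell line with high HER2, and GRB2 is the adaptor protein that couples receptor tyrosine kinases such as HER2 to RAS signalling. There were 6 libraries of poly(A) RNA, 3 from cells that received a nontargeting control siRNA (si_NC) and 3 from cells that received the GRB2 siRNA (si_GRB2). The descriptions of the treated libraries read si_GRB2 while their titles and genotype entries read GRB2 overexpression, so "si_GRB2" below means the libraries described that way. The labels do not name the GRB2 siRNA, and the paper's methods give a sequence for it and no other against this gene. Effects of this siRNA beyond GRB2 were not tested. The labels also leave out whether the 3 libraries of a group came from separate cultures. The p-values thus measure the spread between these libraries, which may be technical.

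Reads counted on genes ranged from 24810378 to 28532480 per library. Levels are given as CPM, read counts divided by library size with TMM scaling between libraries. GRB2 itself lay between 124 and 129.5 CPM in si_NC and between 27.8 and 29.6 CPM in si_GRB2, a fall and not a rise (log2 fold change −2.15, quasi-likelihood test of edgeR, adjusted p = 3.87e-15, Benjamini-Hochberg over all tested genes). The 7 markers of SK-BR-3 (ERBB2, GRB7, EPCAM and 4 keratins) were all present, with a summed level of 19589 to 20056 CPM in si_NC and 16368 to 17047 CPM in si_GRB2. Of these, 6 were lower and 1, ERBB2, was higher in si_GRB2 by the same test. The 9 markers of other cell types summed to 8.40 to 10.3 CPM in si_NC and 6.95 to 7.90 CPM in si_GRB2, and PTPRC, PECAM1 and LUM had between 1 and 3 reads over all 6 libraries. Of the 4 that could be tested, ACTA2 was lower in si_GRB2 and the others did not pass. The part of the marker lists in the results below was not tested.

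DEK and the HMG proteins are abundant non-histone proteins that shape how DNA is wrapped and bent in chromatin. HMGA proteins grip the minor groove of AT-rich DNA through AT-hooks, HMGB proteins bend DNA with a pair of HMG boxes, and HMGN proteins bind the nucleosome core and compete with linker histones. DEK prefers supercoiled and cruciform DNA, acts with the histone chaperone DAXX, and was first found as part of a leukaemia fusion with NUP214. Many of these genes are highly expressed in dividing and tumour cells.

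RefSeq promoter sequences (GRCh38.p14) were matched for 8 of the 10 symbols, 12 start sites in all. HMGA2 and HMGB2 had no entry. The 250 bases before the start site are shown for DEK, on whose difference the group was selected, for HMGN2 and HMGB1, which fell, and for HMGN1 and HMGB3, which did not pass the test. Each is read 5′ to 3′ on the strand of its gene. Capitals mark the letters of 5 motifs searched on both strands: the CCAAT box (CCAAT), the E2F motif (TTTNNCGC), the SP1 motif (GGGCGG), the E-box (CACGTG) and the YY1 motif (CCATNTT). The DEK sequence lies at chr6:18264531-18264780, minus strand, HMGN2 at chr1:26472190-26472439, plus strand, HMGB1 at chr13:30465937-30466186, minus strand, HMGN1 at chr21:39349089-39349338, minus strand, and HMGB3 at chrX:150983085-150983334, plus strand.
DEK: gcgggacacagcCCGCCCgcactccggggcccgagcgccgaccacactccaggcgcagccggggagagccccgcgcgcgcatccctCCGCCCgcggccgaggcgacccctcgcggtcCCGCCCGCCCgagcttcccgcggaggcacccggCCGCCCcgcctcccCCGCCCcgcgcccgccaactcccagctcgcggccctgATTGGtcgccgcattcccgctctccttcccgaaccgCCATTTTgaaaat
HMGN2: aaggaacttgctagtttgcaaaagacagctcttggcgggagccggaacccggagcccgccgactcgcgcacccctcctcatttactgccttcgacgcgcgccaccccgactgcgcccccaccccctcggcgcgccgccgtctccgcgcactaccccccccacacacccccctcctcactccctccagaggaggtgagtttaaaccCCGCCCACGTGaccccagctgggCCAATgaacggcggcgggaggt
HMGB1: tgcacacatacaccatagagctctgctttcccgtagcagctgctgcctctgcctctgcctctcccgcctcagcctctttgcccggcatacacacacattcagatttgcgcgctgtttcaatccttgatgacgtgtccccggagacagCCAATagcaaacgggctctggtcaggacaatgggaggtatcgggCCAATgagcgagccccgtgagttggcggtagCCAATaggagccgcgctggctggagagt
HMGN1: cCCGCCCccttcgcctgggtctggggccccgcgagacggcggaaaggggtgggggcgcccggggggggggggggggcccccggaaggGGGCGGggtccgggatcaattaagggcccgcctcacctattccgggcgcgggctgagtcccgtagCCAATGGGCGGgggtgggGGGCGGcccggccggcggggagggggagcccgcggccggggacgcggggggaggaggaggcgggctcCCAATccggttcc
HMGB3: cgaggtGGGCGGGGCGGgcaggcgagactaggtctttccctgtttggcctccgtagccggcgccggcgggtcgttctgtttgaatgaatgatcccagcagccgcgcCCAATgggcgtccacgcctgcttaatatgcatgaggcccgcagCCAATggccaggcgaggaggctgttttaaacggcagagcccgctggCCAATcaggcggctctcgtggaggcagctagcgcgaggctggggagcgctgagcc

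A CCAAT box was present in 8 of the 12 windows of the members, the 5 shown included, and in 32.01% of all 35116 promoters of this length. The 4 without it were those of HMGN4 and 1 start site each of HMGA1, HMGB1 and HMGB3. The DEK promoter had 1 CCAAT box on the opposite strand, from −49 to −45 relative to the start site, 6 SP1 motifs, of which a pair share bases, and 1 YY1 motif from −13 to −7. HMGN2 had 1 CCAAT box, and its SP1 motif and E-box overlapped by a base. HMGB1 had 3 CCAAT boxes and no SP1 motif in the window shown, and 9 SP1 motifs in the window of another of its 3 start sites. HMGN1 had 2 CCAAT boxes and 4 SP1 motifs, and HMGB3 had 3 and 2 in the window shown, against 0 and 10 at its other start site. An SP1 motif was present in 9 of the 12 windows, more than the CCAAT box, and in 42.6% of all promoters. A YY1 motif stood in 1 window and 11.6% of all promoters, and an E-box in 1 window and 6.35%. No E2F letters were found in any of the 12 windows, beside 5.92% of all promoters. CCAAT boxes stood in promoters of members that fell and of members that did not pass the test.

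DEK (ENSG00000124795.17; chromosome 6 of GRCh38, 18223860 to 18264548, minus strand, 11 exons) was read 9007, 8061 and 8746 times in the si_NC libraries and 4093, 4632 and 4541 times in the si_GRB2 libraries. After scaling, this was 321, 316 and 312 CPM against 163, 169 and 179 CPM. Every si_GRB2 library was below every si_NC library, as was the case for 21.2% of all tested genes. For DEK this is a description, since its fall selected the group. Mean DEK was 316 ± 4.68 CPM in si_NC against 170.2 ± 8.48 CPM in si_GRB2 (SD, n = 3 each), a level 46.2% lower. The log2 fold change was −0.89 (SE 0.03), and 142 of the 15801 tested genes had a lower one. Of all tested genes, 1.69% met the limits for a DEG in this direction (fold change at or under the inverse of 1.5, adjusted p under 0.01), and nothing is read from DEK's place among them, since that difference selected it. In RNA from a whole culture, less DEK RNA per cell and fewer cells that carry it cannot be told apart.

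**Figure D1:**
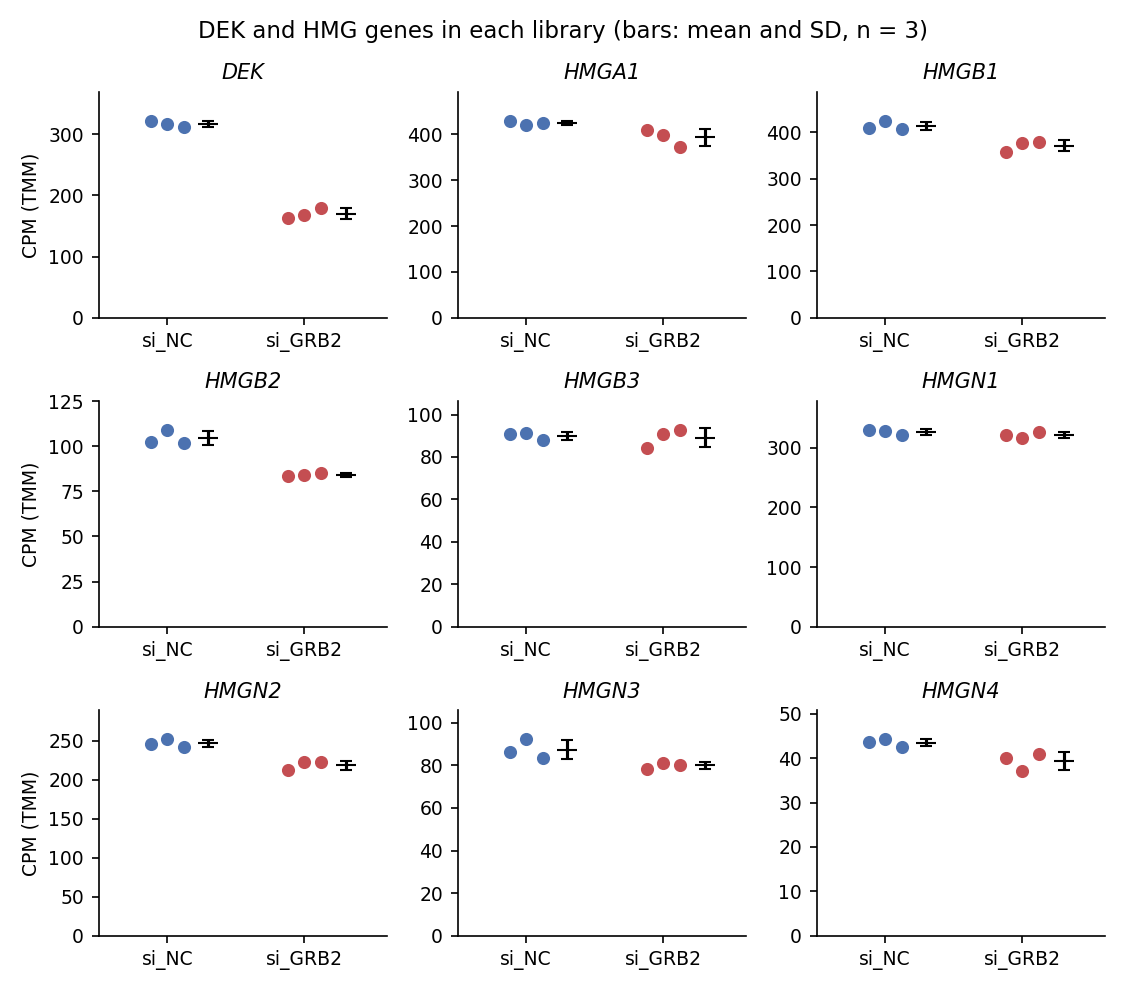
CPM of DEK and the 8 HMG genes in each of the 6 libraries (points; si_NC blue, si_GRB2 red), with the mean and SD of each group beside them; every axis starts at 0. DEK falls from about 316 to 170.2 CPM, the groups of HMGB2 stand clearly apart, and those of HMGB3 and HMGN1 overlap.

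Among the 8 HMG genes, 6 were lower in si_GRB2 and none was higher (edgeR, adjusted p under 0.05 over all genes tested), while HMGB3 and HMGN1 did not pass. HMGB2 fell the most, by 19.3%, and the others that passed fell by 7.27% to 11.2%. Over all genes tested, 15.5% were lower and 15.2% higher at the same threshold. Among the 4170 tested genes with a si_NC level in the range of the HMG genes, 43.5 to 425 CPM, 24.8% were lower. The median log2 fold change of the 8 HMG genes was −0.14, beside 0.00 over all genes and 0.00 over those of the same range. The quartiles of all tested genes were −0.14 and 0.14, and none of the 8 met the limits for a DEG. The groups did not overlap for 6 of the 8, lower in si_GRB2, as they did for 21.2% of all tested genes. The summed level of the 8 genes was 1713 to 1761 CPM in si_NC and 1588 to 1607 CPM in si_GRB2.

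Unit and test together changed these calls. With limma on log2(FPKM + 1), HMGB2 alone of the 8 passed the test. The FPKM of the groups did not overlap for 2 of the 8, HMGB2 and HMGN2, against 13.1% of the 15800 tested genes with an FPKM. On log2(FPKM + 1), 566 genes were lower and 834 higher (59.6% higher), against 2442 and 2396 (49.5% higher) in the counts. The gene sets differed, since limma adjusted over every gene with a nonzero FPKM and edgeR over the 15801 filtered genes. With a mean FPKM of at least 1, limma called 987 genes lower and 1702 higher, and HMGB2 was still the only HMG gene to pass.

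**Figure D2:**
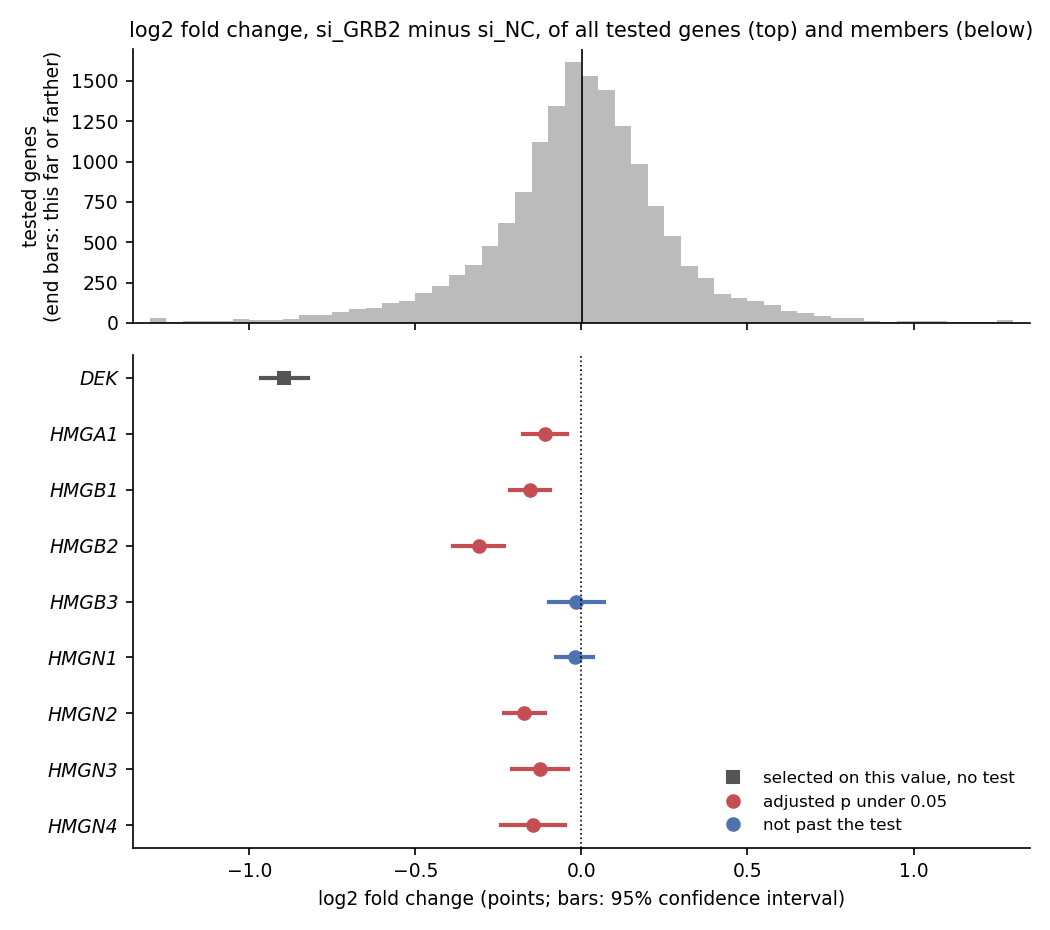
Top, histogram of the log2 fold change (si_GRB2 minus si_NC) of the 15801 tested genes, with their median as a line; below, the same quantity for each member on the same axis, with its 95% confidence interval. DEK (square) was selected on this value, so its place at −0.89 and its interval are a description and not a test. HMGB2 lies at −0.31, and the other HMG genes between −0.17 and −0.02.

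Of the AT-hook proteins, HMGA1 (ENSG00000137309.20; chromosome 6, 34236873 to 34246231, plus strand, 6 exons), an oncofetal chromatin protein, had 429, 421 and 425 CPM in si_NC and 409.5, 398 and 374 CPM in si_GRB2. No si_GRB2 library reached the si_NC libraries, and si_GRB2 replicate 3 was the lowest. The log2 fold change was −0.11 (SE 0.03, adjusted p = 0.0133, edgeR). Without si_GRB2 replicate 3 it was −0.07 and no longer passed (adjusted p = 0.0724, edgeR).

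The HMGB proteins share their fold, and their coding sequences were 73.1% to 77.6% identical in pairwise alignment. HMGB1 (ENSG00000189403.15; chromosome 13, 30456704 to 30617597, minus strand, 5 exons), a nuclear DNA-bending protein that acts as an alarm signal once released, had 409.5, 424 and 408 CPM in si_NC and 358, 377 and 379 CPM in si_GRB2. The groups did not overlap. Its log2 fold change was −0.15 (SE 0.03, adjusted p = 6.00e-04, edgeR).

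HMGB2 (ENSG00000164104.12; chromosome 4, 173331376 to 173334432, minus strand, 5 exons), the paralogue known for high levels in proliferating cells, had 102, 109 and 102 CPM in si_NC and 83.3, 83.9 and 85.2 CPM in si_GRB2. The si_GRB2 libraries lay close together and well under the control range. Its log2 fold change was −0.31 (SE 0.04, adjusted p = 6.75e-06, edgeR), and 1757 of the tested genes had a lower one. HMGB2 was the only HMG gene to pass the test under every alternative run, limma on FPKM included.

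HMGB3 (ENSG00000029993.15; chromosome X, 150980509 to 150990771, plus strand, 5 exons), the X-linked paralogue, had 91.0, 91.2 and 87.9 CPM in si_NC and 84.0, 90.7 and 92.5 CPM in si_GRB2. The si_GRB2 libraries lay on either side of the controls. The log2 fold change was −0.02 (SE 0.04, adjusted p = 0.826, edgeR), with a 95% confidence interval from −0.10 to 0.07.

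Ratios of read counts within a library carry no scaling between libraries, and 6 such ratios were formed among the HMG genes. HMGB2 was 0.252 ± 0.00392 of HMGB1 in si_NC and 0.226 ± 0.00548 in si_GRB2 (SD, n = 3 each). HMGB2 to HMGB3 went from 1.16 ± 0.0343 to 0.946 ± 0.0398, and HMGB1 to HMGB3 from 4.60 ± 0.0841 to 4.17 ± 0.0811. In all 3 pairs the si_GRB2 libraries lay under every si_NC library. The exact permutation test gave a two-sided p = 0.1 for each, the smallest that 3 libraries against 3 allow, and 0.12 after adjustment over the 6 ratios.

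Reads of near-identical copies bear mainly on HMGB1. Pseudogenes named after HMGB1 (12 with reads, led by HMGB1P5, HMGB1P6 and HMGB1P1) held reads equal to 4.54% of those of HMGB1, between 4.07% and 5.23% in single libraries, and reads can be split wrongly between such copies. For HMGN2 the 13 pseudogenes, led by HMGN2P5, came to 1.5%, and for HMGB2, HMGB3, HMGA1 and HMGN1 to 0.598% or less. HMGB1P5 and HMGB1P6, with mean levels of 9.28 and 8.94 CPM in si_NC, had log2 fold changes of −0.11 and −0.24 and did not pass the test (adjusted p = 0.442 and 0.199, edgeR). With the pseudogene reads added to each parent, the same number of HMG genes, 6, passed.

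HMGN proteins bind the nucleosome core particle directly and loosen chromatin compaction. HMGN1 (ENSG00000205581.11; chromosome 21, 39342315 to 39349647, minus strand, 6 exons) had 329, 329 and 321 CPM in si_NC and 322, 316 and 326 CPM in si_GRB2. The groups overlapped. Its log2 fold change was −0.02 (SE 0.03, adjusted p = 0.618, edgeR), with a 95% confidence interval from −0.08 to 0.04, which leaves out falls of the size seen for HMGN2.

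HMGN2 (ENSG00000198830.11; chromosome 1, 26472440 to 26476642, plus strand, 6 exons), which binds nucleosomes in the same manner, had 246, 252 and 243 CPM in si_NC and 212, 222 and 222 CPM in si_GRB2. Every si_GRB2 library was under every si_NC library. Its log2 fold change was −0.17 (SE 0.03, adjusted p = 2.99e-04, edgeR). The HMGN2 to HMGN1 count ratio fell in every si_GRB2 library, from 0.757 ± 0.0102 to 0.681 ± 0.0220 (SD, n = 3 each, exact permutation p = 0.1, adjusted 0.12).

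HMGN3 (ENSG00000118418.14; chromosome 6, 79201245 to 79234689, minus strand, 7 exons), a family member first described as a thyroid hormone receptor partner, had 86.2, 92.2 and 83.5 CPM in si_NC and 78.4, 81.2 and 80.3 CPM in si_GRB2. The groups did not overlap, but the highest si_GRB2 library came close to the lowest si_NC library. The log2 fold change was −0.13 (SE 0.04, adjusted p = 0.0259, edgeR). It did not pass without si_NC replicate 2, where it was −0.09, nor without si_GRB2 replicate 1 (−0.11), replicate 2 (−0.14) or replicate 3 (−0.13), with adjusted p from 0.0514 to 0.120 (edgeR). The HMGN3 to HMGN1 count ratio was 0.268 ± 0.0113 in si_NC and 0.249 ± 0.00713 in si_GRB2 (SD, n = 3 each). The ratios of the groups did not overlap (exact permutation test, two-sided p = 0.1, adjusted 0.12). HMGN3-AS1, on the opposite strand, had 233 reads over the 6 libraries, or 1.75% of those of HMGN3, and whether the counting used strand is not given in the sources used here.

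HMGN4 (ENSG00000182952.5; chromosome 6, 26538366 to 26546933, plus strand, 2 exons), a near copy of HMGN2 with 86.3% identity in the coding sequence, had 43.7, 44.2 and 42.6 CPM in si_NC and 40.1, 37.2 and 40.9 CPM in si_GRB2. The groups did not overlap. Its log2 fold change was −0.15 (SE 0.05, adjusted p = 0.0231, edgeR). It missed the threshold with DESeq2 (adjusted p = 0.0647), without si_NC replicate 2 (edgeR, adjusted p = 0.0690) and without si_GRB2 replicate 2 (edgeR, adjusted p = 0.142, log2 fold change −0.10). The HMGN4 to HMGN2 count ratio was 0.176 ± 0.00152 in si_NC and 0.180 ± 0.0113 in si_GRB2 (SD, n = 3 each), and the groups overlapped (exact permutation test, two-sided p = 0.6).

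Levels can be compared between genes only per length, for which the authors' FPKM (reads scaled by gene length and library size) were used. HMGA1 was the highest, at a mean of 143 FPKM over the 6 libraries and a range of 134 to 153, above 99.3% of the genes in the FPKM table. HMGN3, HMGN2 and HMGN1 followed at 67.2, 59.5 and 52.4 FPKM. These 3 stood in this order in each of the 6 libraries, though the ranges of HMGN2 and HMGN1 overlapped within si_GRB2. HMGB1 stood at 41.6 FPKM, HMGB2 at 31.95 FPKM, DEK at 27.3 FPKM, HMGB3 at 18.7 FPKM and HMGN4 at 17.0 FPKM, and these too kept their order in all 6 libraries, except that HMGB2 was above DEK in 4 of the 6. HMGB2 and DEK overlapped in range within si_NC, and DEK and HMGB3 within si_GRB2. All 9 members lay above 92.6% of genes or more.

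**Figure D3:**
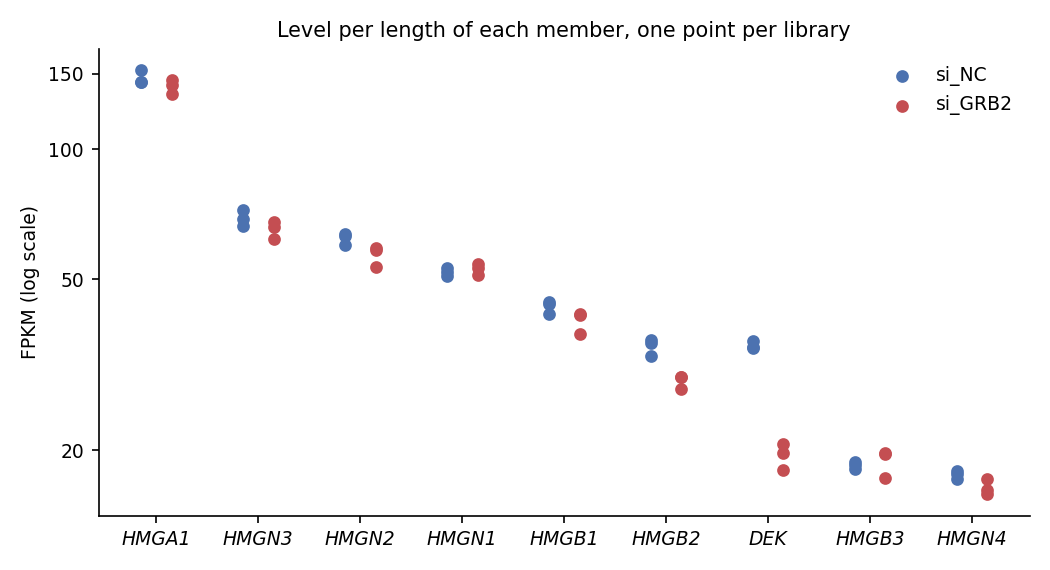
FPKM of each member (log axis), with a point for each library (si_NC blue, si_GRB2 red), in order of the mean over 6 libraries. HMGA1 stands above all others at 134 to 153 FPKM. DEK, selected for its fall, has the groups that lie farthest apart. On this FPKM scale it moves from above HMGB3 in si_NC to the level of HMGB3 in si_GRB2.

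DEK changed place within this order. In si_NC it stood at 34.5, 34.7 and 35.9 FPKM, beside HMGB2 at 33.2, 36.0 and 35.5 FPKM. In si_GRB2 it stood at 18.0, 19.7 and 20.7 FPKM, beside HMGB3 at 17.2, 19.6 and 19.8 FPKM, while HMGB2 was at 27.8, 29.5 and 29.6 FPKM. In the counts, DEK had 3.04 ± 0.117 reads for each read of HMGB2 in si_NC and 2.02 ± 0.0779 in si_GRB2 (SD, n = 3 each), given without a test because the fall of DEK selected the group. The order between genes depended on the length used. With CPM per kilobase of the GENCODE canonical transcript, HMGN1 came first and HMGA1 next, and 3 of the 9 members kept their place. On that scale the means over the 6 libraries were 77.4 for DEK, 65.4 for HMGB2 and 25.5 for HMGB3. The places of DEK beside HMGB2 and HMGB3 are therefore given for FPKM only.

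The 5 genes whose profile over the 6 libraries was most like that of DEK, out of 10615 with at least 5 CPM on average, were COPB2, CPA4, PROCR, EMP1 and MAP1LC3B. Likeness was the root mean square difference of log2 CPM centred on each gene's mean, and it ranged from 0.0361 for COPB2 to 0.0475 for MAP1LC3B on the log2 scale. COPB2, a subunit of the coatomer coat of transport vesicles, went from 281 to 145 CPM, with a log2 fold change of −0.95. CPA4, a secreted carboxypeptidase, had a log2 fold change of −0.91, PROCR, the receptor of protein C, −0.90, EMP1, an epithelial membrane protein, −0.84, and MAP1LC3B, an autophagosome protein, −0.85. These genes were picked for this likeness, so their values are a description.

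Around the DEK locus, 25 other tested protein-coding genes had their start site within 5 Mb. Of these, 6 were lower and 7 higher in si_GRB2, beside 15.5% lower and 15.2% higher over all tested genes. The median log2 fold change was 0.01. The nearest 2 on each side all rose: TPMT by 0.15, KDM1B by 0.18, RNF144B by 0.19 and ID4 by 0.51 on the log2 scale, with adjusted p of 0.00621, 0.00780, 0.00344 and 0.0230 (edgeR). In this order their start sites lay −109, −109, 123 and 1573 kb from that of DEK. ID4 was at only 2.19 CPM in si_NC and 3.12 CPM in si_GRB2. NHLRC1 and KIF13A, nearer to DEK than ID4, did not pass (adjusted p = 0.310 and 0.218, edgeR). TPMT encodes thiopurine methyltransferase, KDM1B a histone demethylase, RNF144B a ubiquitin ligase and ID4 an inhibitor of helix-loop-helix factors.

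**Figure D4:**
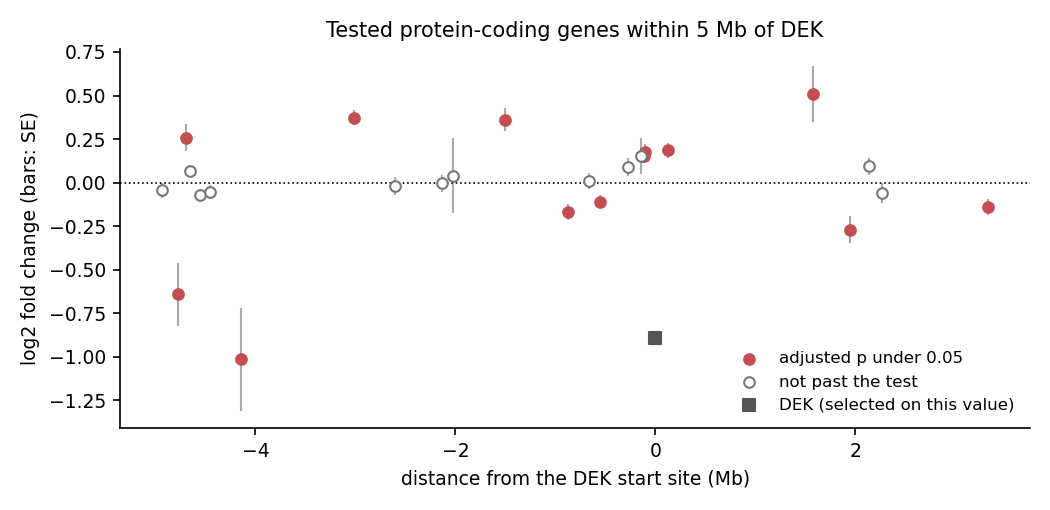
Log2 fold change (si_GRB2 minus si_NC, bars SE) of tested protein-coding genes by the distance of their start site from that of DEK, in Mb. DEK (square, −0.89) stands below its close neighbours, which lie above 0, and 13 of the 25 other genes pass the test, 6 lower and 7 higher.

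Proteins known to act with DEK or on it were mixed in direction. Of 19 tested, 5 were lower and 3 higher, beside 15.5% lower and 15.2% higher over all tested genes. The median log2 fold change was 0.04. Among tested genes at 43.5 to 425 CPM in si_NC, 24.8% were lower. Not all of the 19 genes lie in that range. DAXX, the H3.3 chaperone partner of DEK, fell from 102 to 80.7 CPM (log2 fold change −0.34, SE 0.03, adjusted p = 1.05e-06, edgeR). NPM1, a nucleolar chaperone, fell by 0.19 and PARP1, which modifies DEK with poly(ADP-ribose), by 0.15 on the log2 scale (adjusted p = 5.45e-05 and 4.70e-04, edgeR). CSNK2A1, a catalytic subunit of the kinase CK2 that phosphorylates DEK, rose by 0.10 on the log2 scale (adjusted p = 0.0114, edgeR). CSNK2A2 and CSNK2B, of the same kinase, did not pass (adjusted p = 0.389 and 0.862, edgeR). On the 3 FPKM scales tried with limma, 1 of the 19 was lower and 0 to 1 were higher.

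Among 35 tested linker histones and other architectural proteins, 13 were lower and 4 higher, with a median of −0.03. The shares over all tested genes were 15.5% lower and 15.2% higher. In the range of the HMG genes, 43.5 to 425 CPM in si_NC, 24.8% were lower. Not every gene of this list lies in that range. H1-10, a replication-independent linker histone, fell from 57.9 to 40.5 CPM (log2 fold change −0.52, SE 0.04, adjusted p = 9.40e-08, edgeR). LBR, the lamin B receptor that anchors heterochromatin, fell by 0.42 and YY1, a zinc finger factor at promoter loops, by 0.25 on the log2 scale (adjusted p = 1.98e-06 and 6.50e-05, edgeR). With limma on the 3 FPKM scales, 4 to 6 were lower and 0 higher.

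Histone chaperones were lower in 11 and higher in 3 of 21 tested, beside 15.5% and 15.2% over all tested genes. Their median was −0.08, and DAXX and NPM1 are counted here too. At 43.5 to 425 CPM in si_NC, the range of the HMG genes, 24.8% of tested genes were lower. Not every chaperone lies in that range. ASF1B, which hands H3 and H4 to assembly factors, fell by 0.29 and CHAF1A, the large subunit of the replication-coupled factor CAF-1, by 0.22 on the log2 scale (adjusted p = 1.49e-05 and 5.94e-04, edgeR). On the FPKM scales with limma, 1 to 2 were lower and 0 to 2 higher.

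Of 22 other tested genes with an HMG box or family name, 3 were lower, 2 were higher and 17 did not pass. Their median was −0.03, and over all tested genes 15.5% were lower and 15.2% higher. SOX13, a SOX-family transcription factor, fell from 118 to 80.3 CPM (log2 fold change −0.55, SE 0.03, adjusted p = 4.65e-09, edgeR). SSRP1, the HMG-box subunit of the chaperone FACT, fell by 0.08, while HBP1, a transcriptional repressor, rose by 0.19 and SOX12 by 0.14 on the log2 scale (adjusted p = 0.0284, 0.00471 and 0.0153, edgeR). With limma on the FPKM scales, 1 was lower and 1 to 2 were higher.

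Genes of the cell cycle and DNA replication were lower as well. Of 20 tested, 14 were lower and none was higher, beside 15.5% lower and 15.2% higher over all tested genes. The median log2 fold change was −0.16, beside −0.14 for the HMG genes. Among tested genes at 43.5 to 425 CPM in si_NC, 24.8% were lower. Not all of the 20 genes lie in that range. The summed level of the 20 genes was 3294 to 3376 CPM in si_NC and 2848 to 2954 CPM in si_GRB2. RRM2, a subunit of ribonucleotide reductase, and PCNA, the replication clamp, both fell by 0.31 on the log2 scale, CDK1, the mitotic kinase, by 0.27 and TOP2A, a topoisomerase, by 0.25 (adjusted p = 3.39e-07, 4.16e-07, 4.98e-06 and 6.84e-06, edgeR). The part of these cell cycle and replication genes in the lower HMGB2, HMGB1 and HMGN2 was not tested. With limma, 3 of the 20 were lower on log2(FPKM + 1), 4 on log2(FPKM + 0.1) and 9 on log2(FPKM + 1) with a mean FPKM of at least 1.

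**Figure D5:**
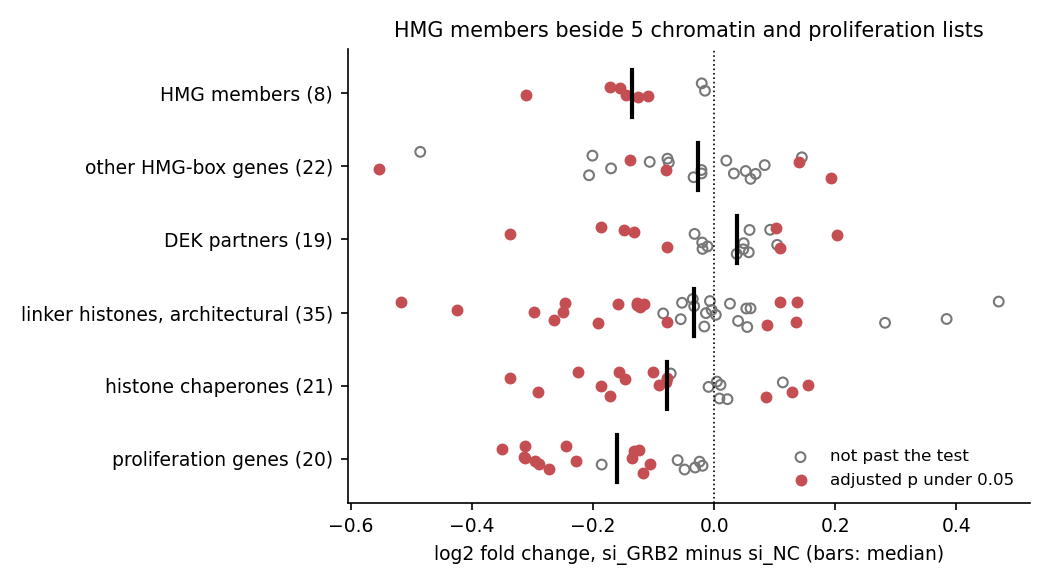
Log2 fold change (si_GRB2 minus si_NC) of every tested gene of the HMG members and 5 lists (number tested in brackets), filled where the adjusted p is under 0.05, with the median of each list as a bar. The medians are −0.14 for the HMG members and −0.16 for the proliferation genes, and between −0.08 and 0.04 for the other lists.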

How the data were processed

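The 6 RNA-seq libraries of SK-BR-3 cells were grouped by their GEO descriptions (si_NC, si_GRB2, 3 each). The authors trimmed reads with FASTX-Toolkit, aligned them to GRCh38 with HISAT2 and deposited counts of uniquely mapped reads per gene, without normalization. The authors also deposited FPKM per gene. The counting tool, its strand setting and the annotation are not given in the sources used here.

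Counts were tested with edgeR 4.0.16 (R 4.3.3; TMM, filterByExpr, glmQLFit and glmQLFTest, no covariate), and p-values were adjusted (Benjamini-Hochberg) over the 15801 genes that passed the filter, every member among them. The fit was tested on simulated counts. Standard errors were derived from each estimate and its F statistic. The alternatives were DESeq2 1.42.0 (the study's program), its size factors, other filters, adjusted p under 0.01, limma 3.58.1 on log2(FPKM + 1) or log2(FPKM + 0.1), pseudogene reads added, a replicate block, and each library left out in turn. Named genes were the members, GRB2, up to 4 genes per list with the smallest p among those that passed, the 5 genes most like DEK in profile, the nearest 2 tested genes on each side of DEK and up to 3 pseudogenes per parent. The members and lists were chosen with earlier results of these data known. Of 30327 gene IDs, 30246 were found in GENCODE 44 on GRCh38, which gave positions and coding sequences. No pair of replicates agreed within sampling noise. The fRIP-seq and splicing data were not analysed here. The 95% confidence intervals of fold changes were built from the standard errors above and take in the spread between libraries. The values of 1 gene that the rule names are not reported here.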

Additional observations from a re-analysis of the deposited data

How the results depend on the processing

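Of 16 alternatives, 15 refitted the data and 1 moved only the limit on adjusted p. Over the 120 refitted log2 fold changes of the 8 HMG genes, 90 kept their direction and their side of the threshold, 23 no longer passed and 7 turned in sign. The sign turned for HMGB3 (0.0257 with limma on log2(FPKM + 1), with or without a mean FPKM of at least 1, 0.0268 on log2(FPKM + 0.1), and 0.0252 without si_GRB2 replicate 1, where the libraries left out in turn gave −0.0429 to 0.0252) and for HMGN1 (0.0228 on log2(FPKM + 1), with or without that minimum, and 0.0231 on log2(FPKM + 0.1)), neither of which passed in the counts. HMGB2 ranged between −0.33 and −0.26, HMGB1 between −0.17 and −0.11 and HMGN2 between −0.19 and −0.13.

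The number of lower HMG genes was 6 in the counts, 5 with DESeq2, 3 at an adjusted p under 0.01 and 1 on each of the 3 FPKM scales, and 4 to 6 with a library left out. No alternative called an HMG gene higher. Over all genes, 1573 were higher at an adjusted p under 0.01. On log2(FPKM + 1), 566 were lower, 834 higher and 54 lower within the DEG limits, on log2(FPKM + 0.1) these were 607, 927 and 92, and with a mean FPKM of at least 1 they were 987, 1702 (63.3% higher) and 65. The median log2 fold change of all tested genes was 0.02 on log2(FPKM + 1) and 0.00 in the counts. The TMM factors of the counts were 0.976 to 0.988 in si_NC and 1.015 to 1.020 in si_GRB2, with no overlap between the groups. The part of this scaling, of depth, of length scaling and of filtering in the lower FPKM counts and in the turned signs was not tested.

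Replicate numbers were shared between the groups, but the deviations of same-numbered libraries correlated above 0.1 in only 1 of 3 pairs (r = 0.377, −0.195 and 0.0598 over 10624 genes, given as a description), so the numbers were not taken as pairs. With the replicate block, 6 HMG genes were lower, and 2417 genes were lower and 2390 higher over all genes. The replicate block changed no call of a member. With 3 libraries a group, no exact test of a single ratio can go below 0.1.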

Other observations

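Genes linked to HMG function outside chromatin were few in these cells. Of 7 receptors and partners of extracellular HMGB1, 3 were tested: CXCR4 was at 0.536 CPM in si_NC and 0.255 CPM in si_GRB2 (log2 fold change −1.06, adjusted p = 0.0499, edgeR), a call absent under DESeq2 and with the replicate block, among other alternatives, and THBD and AGER did not pass.

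Of 7 genes that regulate HMGA genes or are named beside them, 3 were tested. SP1, the factor that binds GC boxes, fell (log2 fold change −0.33, adjusted p = 3.91e-06, edgeR) and MYC from 262 to 223 CPM (log2 fold change −0.24, adjusted p = 7.71e-06, edgeR). IGF2BP3, an RNA-binding protein of oncofetal type, was at 0.235 CPM in si_NC and 0.711 CPM in si_GRB2 (log2 fold change 1.58, adjusted p = 0.0201, edgeR), a call absent under DESeq2.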
